A study of Mus musculus with 6 samples.

Results

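The genes of the Wnt pathway were compared between motor neurons (MNs) made from 2 lines of mouse embryonic stem cells (mESCs), Hb9 control and A2 SMA. The members were 48 genes chosen by symbol, of which all 48 were found among the 34433 gene symbols of the authors' deposited expression table. They comprise 13 Wnt ligands, the ligand acyltransferase Porcn, 10 Frizzled and 2 Lrp receptors, 4 genes of the R-spondin and Lgr system, 6 inhibitors, 3 Dishevelled genes, 5 genes of beta-catenin and its destruction complex and 4 Tcf/Lef factors. Of symbols with more than 1 entry, the entry highest in FPKM (fragments per kilobase of exon, scaled to the number of mapped fragments, a level per transcript length) was taken.

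The Hb9 line carries intact mouse Smn1 and is labelled wildtype, and the A2 line is SMN2+/+;mSmn-/-. Per the study's methods both lines also carry the human SMN2 transgene and the HB9:eGFP reporter, in which the promoter of the MN gene Hb9 drives eGFP. Both are on an FVB/N background per the labels. All cultures were treated as embryoid bodies with 1 µM retinoic acid and 1 µM Smoothened agonist for 5 days, and cells positive for GFP were collected by FACS. RNA from 3 samples per genotype was sequenced, and the authors pooled these into 1 FPKM value per gene and genotype. Values of single samples were not used here, so no SD, no test and no replicate check stands behind any difference given in this report, and no counting error can be given, since the deposited table holds no read counts. Each genotype is 1 cell line, so that an effect of SMN and any other difference between the lines cannot be told apart.

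Smn1, the gene deleted in the A2 line, had 136.5 FPKM in Hb9 control MNs against 5.26 FPKM in A2 SMA MNs. Mnx1, which encodes Hb9, had 41.2 and 44.2 FPKM. Other defining markers of MNs went against the label in the A2 samples. Chat, the acetylcholine-synthesizing enzyme, had 15.5 FPKM in Hb9 control MNs against 0.344 FPKM in A2 SMA MNs, and Lhx3, a transcription factor of MN identity, had 27.6 and 0.348 FPKM. The name MNs is therefore used as the label of the sorted cells. All genes compared, as named below, are the 14926 loci that carry a symbol, reach 1 FPKM in one genotype or the other and are above 0 in both. Their median log2 ratio of A2 SMA over Hb9 control MNs was -0.29, with quartiles of -0.89 and 0.19.

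Wnt proteins are secreted, lipid-modified ligands that bind Frizzled receptors. In the beta-catenin branch, a Frizzled receptor and Lrp5 or Lrp6 act through Dishevelled to block the Axin, Apc and Gsk3 complex that destroys beta-catenin, which then works with Tcf/Lef factors at target genes. Other branches, among them planar cell polarity, use Frizzled receptors without beta-catenin and guide axons and cell movements. In the spinal cord Wnts are known for the growth and patterning of dorsal progenitors and for axon guidance, and in mESCs for support of self-renewal.

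Among genes past 1 FPKM, 6 of 10 Frizzled receptors and 4 of 5 inhibitors were lower in A2 SMA MNs by 2-fold or more, where 22.4% of all genes compared were. Relative to the median gene these counts were 4 of 10 and 4 of 5, where 16.5% of all genes compared were. Of the 8 ligands past 1 FPKM 5 were 2-fold lower, but 3 of these 5 (Wnt1, Wnt4 and Wnt7a) reached 1 FPKM in Hb9 control MNs alone. The ligand count is therefore not set against the share of all genes. Of the 4 ligands with 1 FPKM in both genotypes 2 were 2-fold lower. Lower by any amount were 7 of the 10 Frizzled receptors and 5 of the 5 inhibitors, where 65.9% of all genes compared were, a share that the Frizzled receptors were near. Porcn, Fzd5 and Lef1 had higher levels and beta-catenin itself had nearly the same level in both genotypes. At least 1 FPKM in either genotype was reached by 40 of the 48 members, 4 of which (Wnt1, Wnt4, Wnt7a and Wnt8a) reached it in a single genotype. Of these 40 members 30 were lower in A2 SMA MNs and 10 higher, where 65.9% and 34.1% of all genes compared were. Past the limits, 19 (47.5%) were lower in A2 SMA MNs by 2-fold or more, where 22.4% of all genes compared were. By the same limit 4 (10.0%) were higher, where 6.83% of all genes compared were, and 17 lay within 2-fold. By 4-fold, 7 were lower and 1 (Lef1) higher, where 8.88% and 1.8% of all genes compared were. Of the 36 members with 1 FPKM in both genotypes, 16 were 2-fold lower and 3 were 2-fold higher. The share of all genes under that filter was not computed. With all 48 members and no filter, 21 (43.8%) were lower and 6 (12.5%) higher by 2-fold, beside 24.5% and 8.41% of the 20595 loci above 0 FPKM in both genotypes. Relative to the median gene, 14 of the 40 were 2-fold lower and 4 were 2-fold higher, where 16.5% and 10.4% of all genes compared were. The median log2 ratio of the 40 members was -0.80, and -0.51 relative to the median gene. In these sorted but bulk samples, fewer cells of a type and less RNA per cell cannot be told apart.

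**Figure D1:**
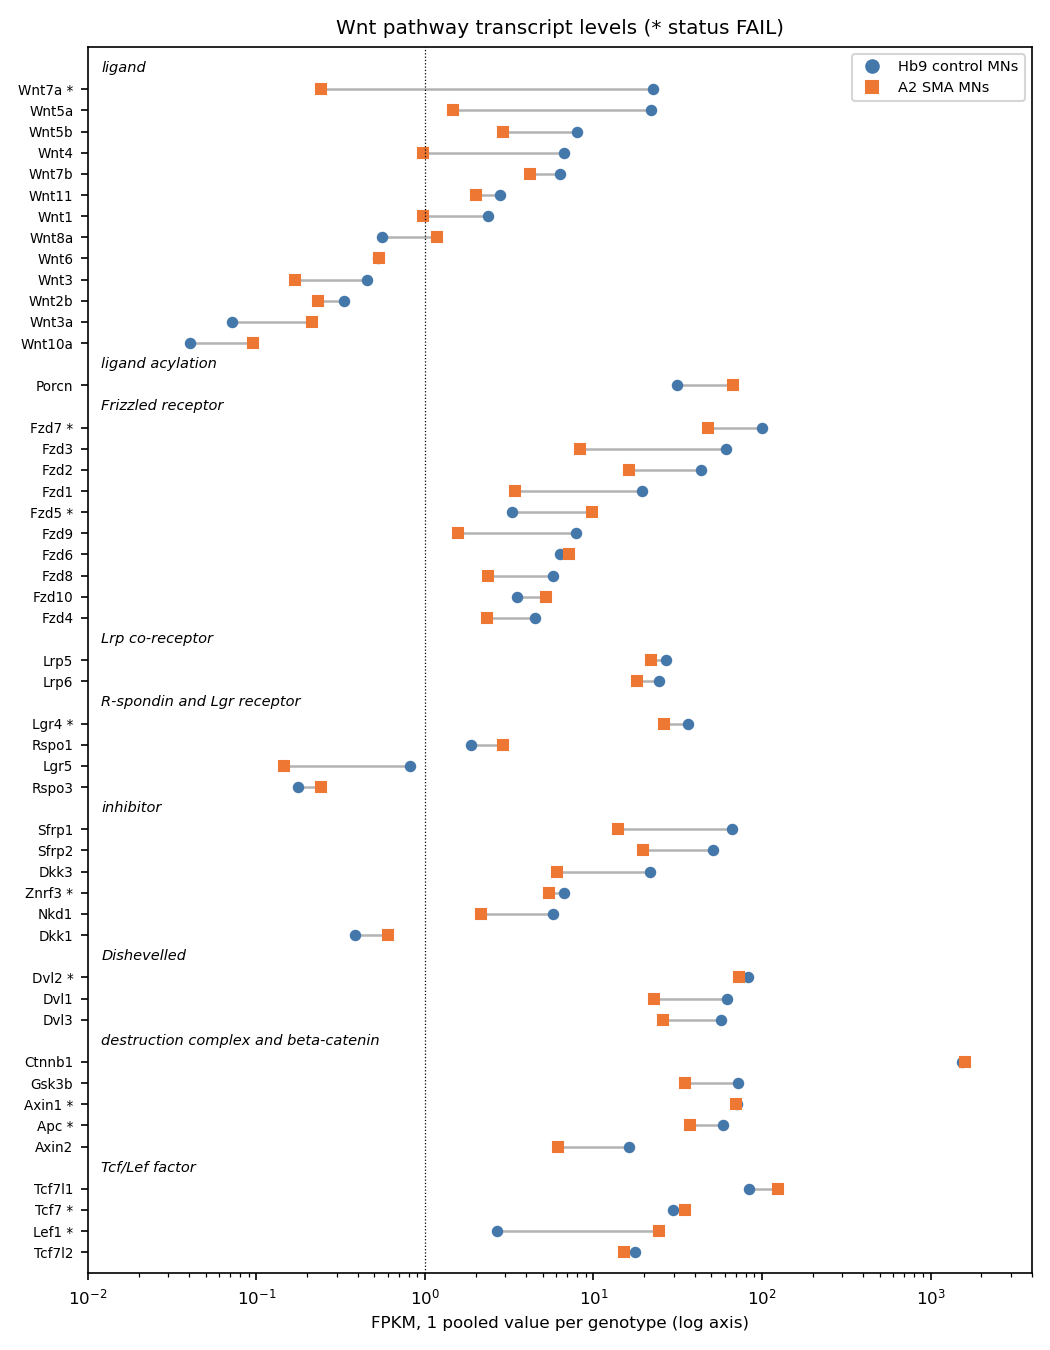
FPKM of the 48 members in Hb9 control MNs (blue circles) and A2 SMA MNs (orange squares) on a log axis, grouped by role, with 1 pooled value per genotype and no error bars. The dotted line marks 1 FPKM and an asterisk the status FAIL. Ctnnb1 lies far to the right at 1540 and 1603 FPKM, and most ligands lie under 10 FPKM in both genotypes.

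Markers of other cell states differed between the same samples. All 9 genes of an embryonic stem cell list were higher in A2 SMA MNs, with a summed level of 226.2 FPKM in Hb9 control MNs against 1498 FPKM in A2 SMA MNs. All 7 measured pan-neuronal genes were lower, with sums of 1240.5 and 131.9 FPKM, and all 6 measured neural progenitor genes were lower, with sums of 889.6 and 47.1 FPKM, although Pax6, with a log2 ratio of -0.07, was above the median gene. The 5 floor plate genes were all lower as well, at 646.3 and 105.5 FPKM in sum. Lists of other lineages were at lower levels or moved less. The 8 roof plate and dorsal progenitor genes summed to 7.38 and 5.81 FPKM, the 7 primitive streak and mesoderm genes to 4.23 and 6.65 FPKM, and the 7 fibroblast genes to 63.6 and 32.4 FPKM. The 6 endoderm genes summed to 136.7 and 27.5 FPKM. In Hb9 control MNs this was mostly Cxcr4, which neural cells also express, at 105.1 FPKM against 7.24 FPKM in A2 SMA MNs. No marker measured was at 0 FPKM in either genotype. The part of these cell states in the differences of the Wnt pathway was not tested.

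The ratios of the Wnt ligands past 1 FPKM ran from -6.53 for Wnt7a to 1.08 for Wnt8a, both of which reached 1 FPKM in a single genotype. Of these 8 ligands 5 were 2-fold lower and 1 was 2-fold higher, but the higher one and 3 of the lower ones passed through 1 genotype only, so the counts are not set against those of all genes. The 4 ligands with 1 FPKM in both genotypes ran from -3.90 to -0.45, with 2 of them 2-fold lower, 0 higher and a median log2 ratio of -1.03. For the 8 the median log2 ratio of -1.38 depended on the filter, since it was -2.77 for ligands past 5 FPKM and -0.58 for all 13. In Hb9 control MNs the most abundant were Wnt7a, a ligand of neural progenitors and synapses, at 22.4 FPKM and Wnt5a, the best known ligand of the branches without beta-catenin, at 22.0 FPKM. In A2 SMA MNs Wnt7a had 0.241 FPKM, a log2 ratio of -6.53, and 0.0603% of all genes compared had a lower ratio. Wnt7a spans chromosome 6 from 91313975 to 91361389 in NCBI m37, the build of all gene positions given here. Its entry has the status FAIL, which Cuffdiff gives when its calculation for a gene breaks down, so this ratio is less certain than others. Wnt5a, on chromosome 14 from 29317936 to 29340633, had 1.47 FPKM in A2 SMA MNs, which is a log2 ratio of -3.90 and a 15.0-fold lower level. Wnt4, a floor plate ligand that guides commissural axons, had 6.67 and 0.978 FPKM, a log2 ratio of -2.77. A pseudocount of 1 FPKM reduced the log2 ratio of Wnt7a to -4.23, that of Wnt5a to -3.22 and that of Wnt4 to -1.95.

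The next ligands differed less. Wnt5b, a close relative of Wnt5a, had 7.99 FPKM in Hb9 control MNs against 2.89 FPKM in A2 SMA MNs (log2 ratio -1.47). Wnt5b has 4 entries, of which this is the highest, and its span also overlaps the entry of Fbxl14. Wnt7b, which like Wnt4 acts in commissural axon guidance, had 6.32 and 4.22 FPKM (log2 ratio -0.58). Wnt11, a ligand of cell movements in the embryo, had 2.77 and 2.02 FPKM (log2 ratio -0.45). Wnt1, a mitogen of the roof plate, had 2.38 and 0.978 FPKM (log2 ratio -1.28). Wnt8a, a ligand of the early embryo, was the only ligand past 1 FPKM with a higher level in A2 SMA MNs, at 0.557 and 1.18 FPKM. Its log2 ratio of 1.08 became 0.49 with a pseudocount of 1 FPKM, so it rests on very low levels.

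The remaining 5 ligands were under 1 FPKM in both genotypes. Wnt6 had 0.527 FPKM in Hb9 control MNs against 0.537 FPKM in A2 SMA MNs, Wnt3 had 0.456 and 0.170 FPKM, and Wnt2b had 0.330 and 0.231 FPKM. Wnt3a had 0.0721 and 0.213 FPKM and Wnt10a had 0.0405 and 0.0948 FPKM. Ratios at such levels rest on few reads and were not interpreted.

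Summed over the 13 ligands, the level was 72.4 FPKM in Hb9 control MNs against 15.2 FPKM in A2 SMA MNs, which is a log2 ratio of -2.25 that was -1.96 relative to the median gene. With the other 6 Wnt genes of the table the sums were 75.9 and 17.7 FPKM. Of these 6, only Wnt9a passed 1 FPKM, at 2.91 and 2.11 FPKM. The make-up of the ligand pool also differed. Wnt7a and Wnt5a contributed 30.9% and 30.3% of the summed level of the 13 ligands in Hb9 control MNs, but 1.59% and 9.62% in A2 SMA MNs. Wnt7b, with 8.73% of the pool in Hb9 control MNs, ranked first in A2 SMA MNs with 27.7%, followed by Wnt5b with 19.0% and Wnt11 with 13.3%. These shares and ranks count only the highest of the 4 entries of Wnt5b, so they understate Wnt5b. With all entries of a symbol summed, the log2 ratio of the ligand sums was -2.10 and that of Wnt5b was -1.42. The ranks were not computed that way. Wnt7a, with the status FAIL, and Wnt5a had the largest differences in level of the 13.

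Several Wnt genes lie side by side. Wnt6 and Wnt10a are 6.2 kb apart on chromosome 1, Wnt10b and Wnt1 11.7 kb on chromosome 15, Wnt3a and Wnt9a 16.2 kb and Wnt9b and Wnt3 24.3 kb on chromosome 11. Neighbours could have unlike levels. Wnt1 had 2.38 FPKM in Hb9 control MNs beside 0.172 FPKM for Wnt10b, which was named after its value was seen, and Wnt9a had 2.91 FPKM beside 0.0721 FPKM for Wnt3a.

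**Figure D2:**
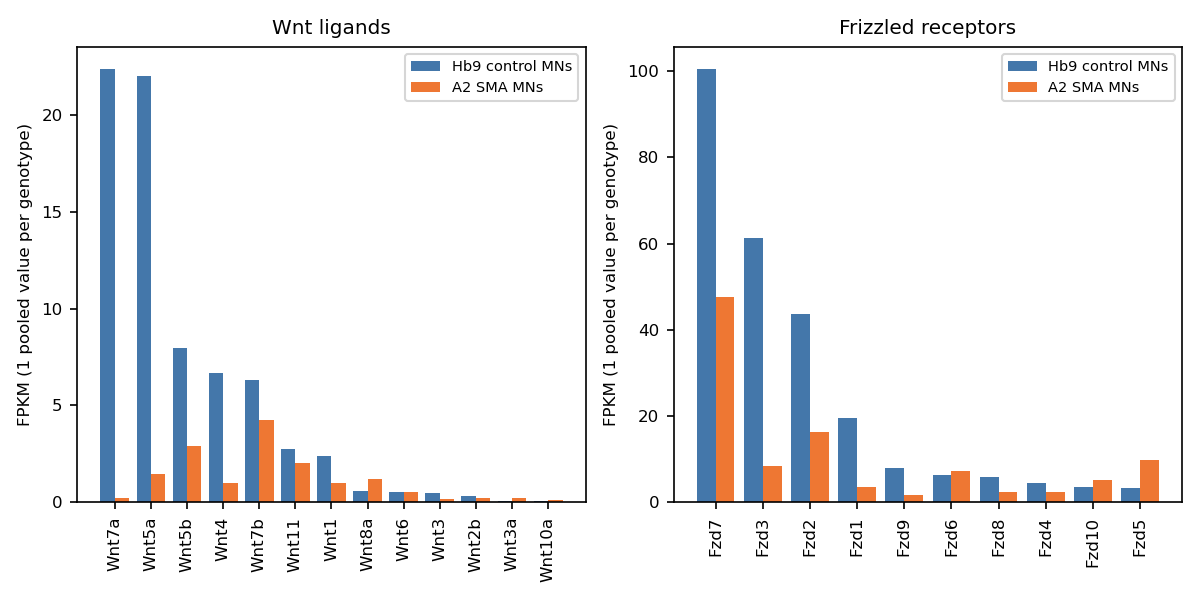
FPKM of the 13 Wnt ligands (left) and the 10 Frizzled receptors (right) on linear axes that start at 0, in Hb9 control MNs (blue) and A2 SMA MNs (orange), ordered by the level in Hb9 control MNs, with 1 pooled value per bar and no error bars. Wnt7a and Wnt5a stand at 22.4 and 22.0 FPKM in Hb9 control MNs and under 2 FPKM in A2 SMA MNs, and Fzd5, Fzd6 and Fzd10 are the receptors with the higher bar in A2 SMA MNs.

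The enzymes and carriers of Wnt secretion went in different directions. Porcn, which attaches the lipid that Wnts need for secretion and receptor binding, had 31.3 FPKM in Hb9 control MNs against 67.0 FPKM in A2 SMA MNs, which is a log2 ratio of 1.10. It lies on chromosome X from 7770967 to 7783651. Wls, the carrier of lipid-modified Wnts to the cell surface, had 49.1 and 14.5 FPKM, a log2 ratio of -1.76, so that the level of Porcn over that of Wls was 0.638 in Hb9 control MNs and 4.62 in A2 SMA MNs. Notum, an extracellular enzyme that removes the lipid and is itself a target of the pathway, had 1.30 and 11.0 FPKM (log2 ratio 3.08). Of the 7 genes of this list that are not members, 3 were 2-fold lower and 1 was 2-fold higher, beside 22.4% and 6.83% of all genes compared. Relative to the median gene this turned to 1 (14.3%) lower and 2 (28.6%) higher, beside 16.5% and 10.4%. Among the matrix proteins of the list Sulf2, a heparan sulfate sulfatase, had 253.9 and 117.6 FPKM and Tinagl1 had 111.6 and 51.4 FPKM.

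All 10 Frizzled receptors were measured above 1 FPKM in both genotypes. Of these 6 were 2-fold lower in A2 SMA MNs, and 1 was 2-fold higher, where 22.4% and 6.83% of all genes compared were. Relative to the median gene 4 (40.0%) of the receptors were 2-fold lower and 1 (10.0%) was 2-fold higher, beside 16.5% and 10.4%. Their median log2 ratio was -1.18, and -0.89 relative to the median gene. Fzd7, the leading Frizzled receptor of pluripotent cells, was the most abundant in both genotypes, at 100.6 FPKM in Hb9 control MNs against 47.5 FPKM in A2 SMA MNs (log2 ratio -1.08, status FAIL). It lies on chromosome 1 from 59538991 to 59543791. Fzd3, a receptor of planar cell polarity and axon guidance, was next in Hb9 control MNs at 61.4 FPKM and had 8.28 FPKM in A2 SMA MNs, and its log2 ratio of -2.89 was the lowest of the family. Fzd3 spans chromosome 14 from 65811286 to 65881364.

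Fzd2 had 43.7 FPKM in Hb9 control MNs against 16.3 FPKM in A2 SMA MNs, which is a log2 ratio of -1.42. Fzd1 had 19.5 and 3.41 FPKM, a log2 ratio of -2.52, and Fzd9 had 7.87 and 1.57 FPKM, a log2 ratio of -2.32. Fzd8 had 5.79 and 2.38 FPKM (log2 ratio -1.28), and Fzd4, the receptor of retinal vessels, had 4.48 and 2.32 FPKM (log2 ratio -0.95). The other 3 were higher in A2 SMA MNs. Fzd5 had 3.29 and 9.83 FPKM, a log2 ratio of 1.58, with the status FAIL. Fzd10, known from the dorsal neural tube, had 3.51 and 5.22 FPKM (log2 ratio 0.57), and Fzd6, a planar cell polarity receptor of skin, had 6.36 and 7.17 FPKM (log2 ratio 0.17).

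The receptors therefore differed in their order. The summed level was 256.6 FPKM in Hb9 control MNs against 104.1 FPKM in A2 SMA MNs, which is a log2 ratio of -1.30. Fzd7 made up 39.2% of it in Hb9 control MNs and 45.7% in A2 SMA MNs. The share of Fzd3 was 23.9% and 7.96%, and that of Fzd5 was 1.28% and 9.44%, which moved Fzd5 from rank 10 to rank 3 of the family. The level of Fzd7 over that of Fzd3 was 1.64 in Hb9 control MNs and 5.74 in A2 SMA MNs.

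The Lrp co-receptors of the beta-catenin branch differed little. Lrp5 had 26.9 FPKM in Hb9 control MNs against 21.9 FPKM in A2 SMA MNs (log2 ratio -0.30), and Lrp6 had 24.6 and 18.2 FPKM (log2 ratio -0.44), which were -0.01 and -0.15 relative to the median gene. Of the co-receptors of the other branches, Ryk and Ptk7 were also near the median gene. Ryk, a receptor-like pseudokinase, had 59.3 and 48.6 FPKM. Ptk7, a pseudokinase of planar cell polarity, had 60.8 and 54.1 FPKM with the status FAIL, and its entry spans 416.3 kb. In a list of 15 receptors, R-spondins and ubiquitin ligases outside the members, 10 passed 1 FPKM, of which 3 were 2-fold lower and 0 were 2-fold higher, so that the share of 30.0% lower was near the 22.4% of all genes compared. Lrp4, the muscle receptor for agrin, had 13.6 and 4.59 FPKM. Tmem198 had the lowest ratio of this list, with 12.4 and 1.29 FPKM (log2 ratio -3.26).

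R-spondins raise the number of Wnt receptors by binding Lgr4 to Lgr6 and removing the ubiquitin ligases Znrf3 and Rnf43. Lgr4, the abundant receptor of this system, had 36.4 FPKM in Hb9 control MNs against 26.2 FPKM in A2 SMA MNs (log2 ratio -0.47, status FAIL). Rspo1 had 1.88 and 2.89 FPKM (log2 ratio 0.62). Rspo3 had 0.177 and 0.243 FPKM and Lgr5, a stem cell receptor and target gene, had 0.810 and 0.146 FPKM, all under 1 FPKM.

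Extracellular and intracellular inhibitors were mostly lower in A2 SMA MNs. Of the 5 inhibitors past 1 FPKM, 4 were 2-fold lower and 0 were 2-fold higher, where 22.4% and 6.83% of all genes compared were. Their median log2 ratio was -1.43 (-1.14 relative to the median gene). Sfrp1, a secreted protein that binds Wnts, had 66.1 FPKM in Hb9 control MNs against 13.9 FPKM in A2 SMA MNs, which is a log2 ratio of -2.25. It spans chromosome 8 from 24521974 to 24560104. Its relative Sfrp2 had 51.2 and 19.8 FPKM, a log2 ratio of -1.38, so that Sfrp1 ranked first of the secreted inhibitors in Hb9 control MNs and Sfrp2 in A2 SMA MNs. Dkk3, a divergent member of the Dickkopf family, had 21.7 and 6.08 FPKM (log2 ratio -1.83). Dkk1, which blocks Lrp5 and Lrp6, was under 1 FPKM in both genotypes at 0.386 and 0.60 FPKM. The 4 secreted inhibitors summed to 139.4 and 40.3 FPKM, a log2 ratio of -1.79.

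Among the intracellular and membrane inhibitors, Nkd1, a Dishevelled-binding feedback inhibitor, had 5.78 FPKM in Hb9 control MNs against 2.14 FPKM in A2 SMA MNs (log2 ratio -1.43). Znrf3, the ubiquitin ligase that clears Frizzled receptors, had 6.65 and 5.47 FPKM (log2 ratio -0.28, 0.01 relative to the median gene, status FAIL). The 16 extracellular inhibitors outside the members included 11 past 1 FPKM, of which 8 (72.7%) were 2-fold lower and 0 were 2-fold higher, beside 22.4% and 6.83% of all genes compared, with a median log2 ratio of -1.26. Relative to the median gene 5 (45.5%) were 2-fold lower, beside 16.5% of all genes compared. Both counts include Sfrp4, which reached 1 FPKM in Hb9 control MNs alone, at 1.07 and 0.185 FPKM. In this list 2610109H07Rik, an older name of Draxin, an axon guidance protein that antagonizes Wnt signaling, had 16.7 and 1.38 FPKM (log2 ratio -3.59). Shisa3 had 10.8 and 1.08 FPKM with the status FAIL, and Frzb had 4.71 and 1.35 FPKM. Igfbp4, the most abundant of them, had 171.8 and 83.1 FPKM.

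The Dishevelled genes, which pass the signal from Frizzled receptors to both branches, did not move alike. Dvl1 had 62.2 FPKM in Hb9 control MNs against 23.0 FPKM in A2 SMA MNs (log2 ratio -1.43), and Dvl3 had 56.9 and 25.7 FPKM (log2 ratio -1.14). Dvl2 had 82.2 and 73.2 FPKM (log2 ratio -0.17, and 0.12 relative to the median gene). Its entry is shared with the microRNA gene Mir324, has the status FAIL and overlaps that of Acadvl. The share of Dvl2 in the summed level of the 3 genes was 40.8% in Hb9 control MNs and 60.0% in A2 SMA MNs.

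Beta-catenin had by far the highest level of the pathway. Ctnnb1, which encodes it, had 1540 FPKM in Hb9 control MNs against 1603 FPKM in A2 SMA MNs, which is a log2 ratio of 0.06 that was 0.35 relative to the median gene. In both genotypes 99.9% of all genes compared had a lower level. Its entry spans 352.7 kb of chromosome 9 from 120833573 to 121186315 and overlaps that of Ulk4. These RNA levels say nothing of the amount of beta-catenin protein, which the destruction complex sets.

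The destruction complex was near the median gene in part. Axin1, its scaffold, had 70.8 FPKM in Hb9 control MNs against 70.5 FPKM in A2 SMA MNs (log2 ratio -0.01, 0.28 relative to the median gene, status FAIL). Axin2, the scaffold whose gene is a feedback target of the pathway, had 16.2 and 6.13 FPKM, a log2 ratio of -1.41 and 2.65-fold lower. It lies on chromosome 11 from 108781663 to 108812097. Gsk3b, the kinase that marks beta-catenin for destruction, had 72.1 and 35.1 FPKM (log2 ratio -1.04, and -0.75 relative to the median gene). Apc, the second scaffold, had 58.6 and 37.6 FPKM (log2 ratio -0.64, status FAIL). Its neuronal paralog Apc2 had 29.5 and 1.82 FPKM, a log2 ratio of -4.02, so that the level of Apc over that of Apc2 was 1.98 in Hb9 control MNs and 20.7 in A2 SMA MNs.

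Of the 22 other cytoplasmic genes of the pathway, all past 1 FPKM, 4 (18.2%) were 2-fold lower and 0 were 2-fold higher, near the 22.4% and below the 6.83% of all genes compared. Relative to the median gene 2 (9.09%) were lower and 0 higher, beside 16.5% and 10.4%. Their median log2 ratio was -0.37, beside -0.29 for all genes compared. Csnk1a1, the casein kinase that primes beta-catenin, had 317.9 FPKM in Hb9 control MNs against 256.4 FPKM in A2 SMA MNs with the status FAIL, and Csnk1e, which acts on Dishevelled, had 296.2 and 123.6 FPKM. Cxxc4, a Dishevelled-binding inhibitor, had 18.5 and 1.82 FPKM (log2 ratio -3.34).

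**Figure D3:**
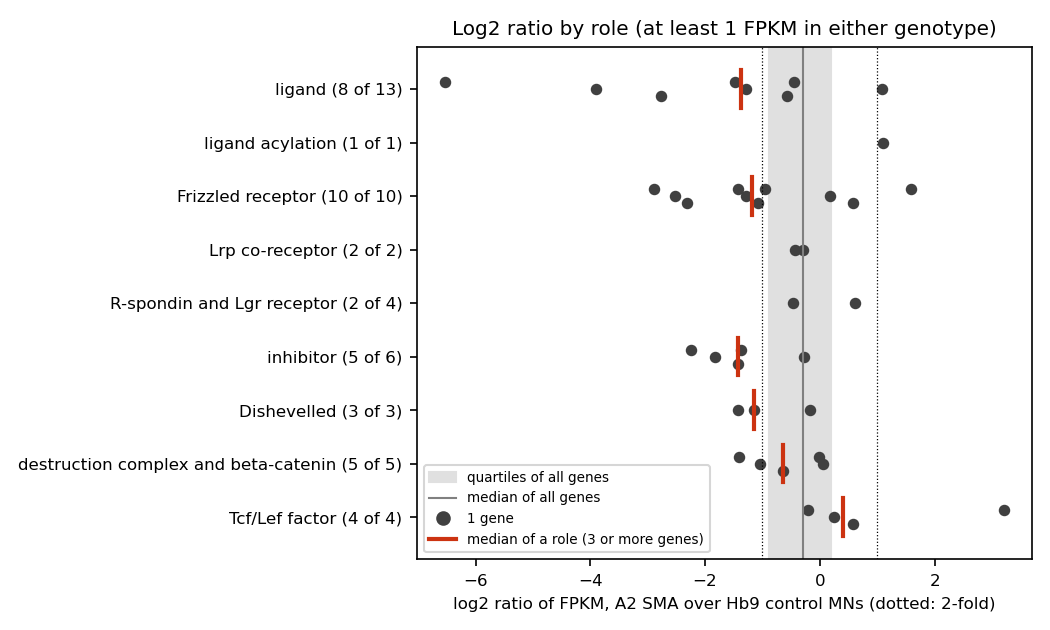
Log2 ratio of FPKM in A2 SMA over Hb9 control MNs (x axis) for each member with at least 1 FPKM in either genotype (points), by role (y axis, with how many of how many passed). Red bars are medians of roles with 3 or more genes, the grey line and band are the median and quartiles of all genes compared, and dotted lines mark 2-fold. Ligands, Frizzled receptors and inhibitors have medians of -1.38, -1.18 and -1.43, and Tcf/Lef factors of 0.41. The ligand median was -2.77 past 5 FPKM and -0.58 with no filter.

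The Tcf/Lef factors, the DNA-binding partners of beta-catenin, had a median log2 ratio above 0, at 0.41, and the 4 of them were all above the median gene. Lef1, which mostly acts as an activator and is itself a target of the pathway, had 2.66 FPKM in Hb9 control MNs against 24.6 FPKM in A2 SMA MNs. The log2 difference of 3.21 is a 9.27-fold higher level, and 99.7% of all genes compared had a lower ratio. Its entry, on chromosome 3 from 130813177 to 130927274, has the status FAIL. Tcf7l1, the main Tcf repressor of mESCs, was the most abundant of the family in both genotypes, at 83.6 and 124.8 FPKM (log2 ratio 0.58). Tcf7 had 29.6 and 35.1 FPKM (log2 ratio 0.24, status FAIL), but its entry spans 336.3 kb and overlaps 7 entries with a symbol and at least 1 FPKM, among them those of Skp1a and Ppp2ca. Tcf7l2 had 17.6 and 15.2 FPKM (log2 ratio -0.21), which was 0.08 relative to the median gene.

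The 4 factors summed to 133.5 FPKM in Hb9 control MNs against 199.7 FPKM in A2 SMA MNs. Tcf7l1 made up 62.7% of this sum in Hb9 control MNs and 62.5% in A2 SMA MNs, while Lef1 made up 1.99% and 12.3%. The level of Tcf7l1 over that of Lef1 was 31.5 in Hb9 control MNs and 5.07 in A2 SMA MNs. Of the 21 nuclear partners outside the members, 2 (9.52%) were 2-fold lower and 1 (4.76%) was 2-fold higher, beside 22.4% and 6.83% of all genes compared. Relative to the median gene 1 (4.76%) was lower and 3 (14.3%) were higher, beside 16.5% and 10.4%, so that the higher share was below that of all genes on one scale and above it on the other. The gene that was higher before centring was Tle6, of the Groucho corepressor family, with 17.1 and 51.5 FPKM (log2 ratio 1.59). Pygo1, which links beta-catenin to the transcription machinery, had 7.18 and 1.64 FPKM (log2 ratio -2.13).

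Tcf/Lef factors bind the letters CTTTG followed by A or T at each of the next positions, and promoter windows of members were searched on both strands for the word CTTTGAA, the word CTTTGAT, the word CTTTGTA and the word CTTTGTT. A word on the other strand reads as its reverse complement. The windows, from RefSeq on GRCm38.p6, hold 250 bases before and 50 after a start site, and 30 of the 48 members had at least 1. A word was found in 7 of their 39 windows (17.9%), beside 16.9% of all 32851 windows, and in 7 of the 30 genes (23.3%), beside 18.9% of all 27025 genes. A match is a run of letters and no evidence of binding. The sequences below show the feedback gene Axin2 and the first start of Lef1, which differed in opposite directions and hold none of these words (the last of 4 starts of Lef1 holds 1), and 3 members with a word, in capitals. They are chr11:108920099-108920398 for Axin2, chr3:131110047-131110346 for Lef1, chr1:59481897-59482196 for Fzd7 and chr7:98834862-98835161 for Wnt11, all on the plus strand, and chr6:119449337-119449636 on the minus strand for the last of 3 starts of Wnt5b. Each reads 5′ to 3′ along its gene. The word starts at position -130 from the start site in Fzd7, -71 in Wnt5b and -51 in Wnt11.
Axin2: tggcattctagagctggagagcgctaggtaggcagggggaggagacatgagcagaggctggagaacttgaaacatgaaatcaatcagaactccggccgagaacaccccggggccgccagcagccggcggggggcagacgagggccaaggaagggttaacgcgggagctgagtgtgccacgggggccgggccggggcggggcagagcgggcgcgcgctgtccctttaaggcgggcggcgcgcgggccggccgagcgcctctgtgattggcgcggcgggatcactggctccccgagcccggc
Lef1: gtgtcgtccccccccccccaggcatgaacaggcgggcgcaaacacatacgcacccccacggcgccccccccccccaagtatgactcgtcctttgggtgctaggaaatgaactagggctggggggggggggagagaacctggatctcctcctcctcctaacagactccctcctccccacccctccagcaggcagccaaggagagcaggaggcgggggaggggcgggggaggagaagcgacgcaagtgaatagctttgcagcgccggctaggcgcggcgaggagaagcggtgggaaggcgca
Fzd7: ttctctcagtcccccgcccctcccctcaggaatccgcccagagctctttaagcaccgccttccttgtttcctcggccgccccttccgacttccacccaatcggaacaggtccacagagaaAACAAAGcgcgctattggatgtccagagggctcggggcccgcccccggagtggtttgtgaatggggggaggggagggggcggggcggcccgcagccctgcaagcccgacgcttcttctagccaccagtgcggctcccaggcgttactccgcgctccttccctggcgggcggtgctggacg
Wnt5b: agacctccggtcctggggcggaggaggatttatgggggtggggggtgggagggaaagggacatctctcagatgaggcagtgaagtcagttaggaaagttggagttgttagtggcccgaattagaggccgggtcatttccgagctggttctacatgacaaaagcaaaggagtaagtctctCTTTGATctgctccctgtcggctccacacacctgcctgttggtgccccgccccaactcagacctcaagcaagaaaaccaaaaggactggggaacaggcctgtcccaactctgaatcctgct
Wnt11: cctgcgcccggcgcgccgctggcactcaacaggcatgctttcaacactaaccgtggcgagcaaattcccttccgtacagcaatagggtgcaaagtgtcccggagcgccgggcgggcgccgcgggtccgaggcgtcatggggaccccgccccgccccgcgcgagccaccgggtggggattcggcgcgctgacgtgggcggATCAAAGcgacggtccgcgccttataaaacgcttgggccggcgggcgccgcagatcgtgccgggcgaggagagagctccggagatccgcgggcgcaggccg

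The 26 genes of a list of known targets of the beta-catenin branch, which includes 7 members, did not move one way. Of the 18 past 1 FPKM, 8 (44.4%) were 2-fold lower and 4 (22.2%) were 2-fold higher in A2 SMA MNs. Of all genes compared 22.4% and 6.83% were. Of the lower targets Sp8 and Msx1 reached 1 FPKM in Hb9 control MNs alone, and of the higher ones Msx2 in A2 SMA MNs alone. The shares of the targets are therefore not read as above those of all genes. The median log2 ratio was -0.17, beside -0.29 for all genes compared. The targets that many tissues share as feedback genes were split. Axin2 and Nkd1 were lower, as given above, and so was Apcdd1, a membrane inhibitor, with 14.7 FPKM in Hb9 control MNs against 5.68 FPKM in A2 SMA MNs. Lef1, with the status FAIL, and Notum were higher, at 9.27-fold and 8.43-fold. Znrf3 and Tcf7, both with the status FAIL, lay within 2-fold, with log2 ratios of -0.28 and 0.24. Sp8, a zinc finger factor of limb and nervous system development, was lower with 7.99 and 0.305 FPKM, and so was the growth factor Fgf18 with 7.70 and 1.76 FPKM. Ccnd1, which encodes cyclin D1, was the most abundant target at 93.8 and 36.8 FPKM (log2 ratio -1.35). The list holds genes that other pathways also control.

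**Figure D4:**
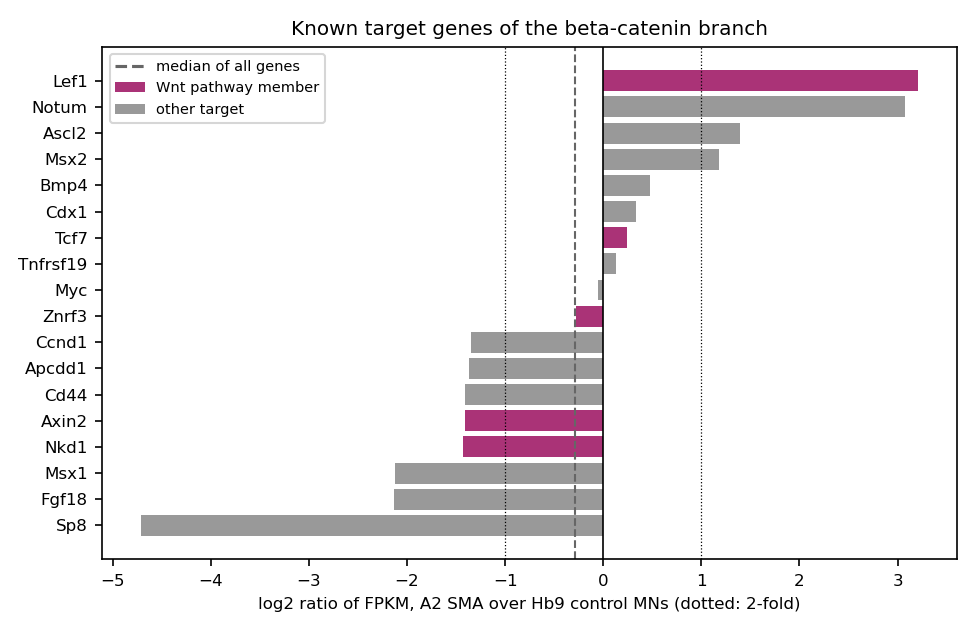
Log2 ratio of FPKM in A2 SMA over Hb9 control MNs (x axis) for the 18 listed targets of the beta-catenin branch with at least 1 FPKM in either genotype, ordered by ratio. Purple bars are Wnt pathway members and grey bars other targets, the dashed line is the median of all genes compared and dotted lines mark 2-fold. The ratios run from -4.71 for Sp8 to 3.21 for Lef1.

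Of the 20 planar cell polarity genes, which include Fzd3 and Fzd6 and all passed 1 FPKM in either genotype, 16 were lower. Of all genes compared 65.9% were. Of the 18 that are not members 8 (44.4%) were 2-fold lower and 0 were 2-fold higher, beside 22.4% and 6.83% of all genes compared, with a median log2 ratio of -0.78 (-0.49 relative to the median gene). Celsr2, an adhesion receptor that works with Fzd3 in axon guidance, had 235.1 FPKM in Hb9 control MNs against 13.9 FPKM in A2 SMA MNs, which is a log2 ratio of -4.08. Vangl2, a membrane protein of the core complex, had 189.6 and 23.2 FPKM (log2 ratio -3.03). Celsr3 had 24.0 and 2.20 FPKM with the status FAIL, and Daam2, a Dishevelled-binding formin, had 7.56 and 0.716 FPKM. Daam2, which is among the 8 lower genes, thus reached 1 FPKM in Hb9 control MNs alone. Scrib, a polarity scaffold of epithelia, and the small GTPase Rac1 differed by less than 1.5-fold, at 106.9 and 76.4 FPKM and at 81.5 and 72.1 FPKM. The pan-neuronal and neural progenitor marker lists moved in the same direction as these genes, and their part was not tested.

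**Figure D5:**
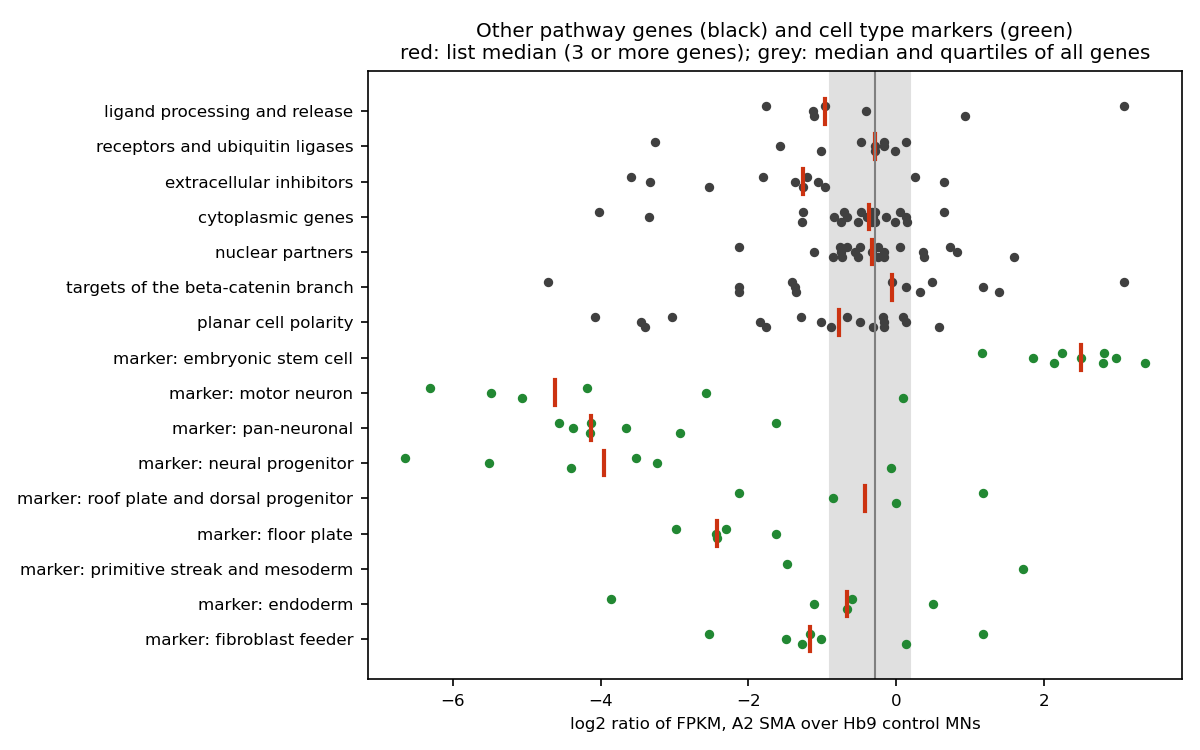
Log2 ratio of FPKM in A2 SMA over Hb9 control MNs (x axis) for other genes of the pathway (black points) and cell type markers (green points) with at least 1 FPKM in either genotype, by list (y axis). Members are left out, red bars are medians of lists with 3 or more genes, and the grey line and band are the median and quartiles of all genes compared. Embryonic stem cell markers have a median of 2.51 and pan-neuronal markers of -4.13, while extracellular inhibitors have -1.26 and planar cell polarity genes -0.78.

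Leaving out the 10 members with the status FAIL, a status that 14% of all genes compared had, left 30 members past 1 FPKM. Of these 17 were 2-fold lower and 2 were 2-fold higher, beside 23.4% and 7.02% of the genes compared without that status. The higher counts then rest on Porcn and Wnt8a, since Fzd5 and Lef1 are among those left out.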

How the data were processed

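RNA of sorted MNs was sequenced as single-end reads, with 3 libraries for either genotype, from a kit (TruSeq RNA) that does not mark strand, so reads of overlapping genes cannot be told apart. Per the labels and the study's methods, reads were checked in FastQC 0.10.1 and trimmed by cutadapt, and TopHat2 2.04 aligned them to NCBI m37 with Ensembl annotation. Cufflinks then built transcripts. The FPKM values analysed here were deposited by the authors from a Cuffdiff run, 1 per gene and genotype, pooled over its samples. The same table holds the authors' fold changes, test statistics, p-values and q-values, which were not used. The deposited status column served to mark entries as FAIL. Depth per sample cannot be read from pooled FPKM, and the study's library totals were not used.

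Log2 ratios of A2 SMA over Hb9 control MNs were computed without a pseudocount in Python 3.11.15 with numpy 2.4.6 and pandas 2.3.3, and figures were drawn with matplotlib 3.10.9. An entry that lists several symbols counted once among all genes compared. Starts of entries were shifted by 1 base to count from 1. A difference of 2-fold or more in either direction was counted, and no test was run, since each genotype has a single value. The members and lists were chosen with earlier results of these data known. Named were the 48 members, Smn1 and Mnx1, and of each other list at most the 4 most abundant genes and the 4 with the largest ratio among genes past 1 FPKM. Wnt10b and Pax6 fall outside this rule and were named after their values were seen. The row choice and ratios were tested on simulated data. Alternatives were pseudocounts, filters, scalings, thresholds, summed entries and leaving out shared or FAIL entries.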

Additional observations from a re-analysis of the deposited data

How the results depend on the processing

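No paired analysis was possible because the table gives 1 value per genotype, and for the same reason no sample could be left out. Under the 12 alternatives that apply to it, the median log2 ratio of the members ranged from -1.21 without the status FAIL to -0.51 when centred on the median gene. The count of members 2-fold lower was 14 to 21 under every alternative except the 4-fold limit. The count of 2-fold higher members, 4, became 2 without the status FAIL, because Fzd5 and Lef1 have that status. The share was then 6.67%, beside 7.02% of the genes compared without that status. At a limit of 4-fold the counts were 7 lower and 1 higher. The median of the ligands, -1.38, became -2.77 with a filter of 5 FPKM and -0.58 with no filter, since the filter decides how many weak ligands enter. The other medians by role and the sums by family moved by less than 1.5-fold, although that of the R-spondin and Lgr genes, 0.07 from few genes, ranged from -0.47 to 0.62. Of 456 ratios of single genes under alternatives, 0 changed sign where the ratio was past 2-fold, although those of Axin1, Dvl2, Tcf7l2 and Znrf3, all near 0, did under rescaling. Only 4, those of Wnt4, Wnt5a, Wnt7a and Wnt8a with a pseudocount of 1 FPKM, moved by 1.5-fold or more. Leaving out 4 members with overlapping entries was chosen after seeing the data and gave 18 lower and 4 higher. The table holds no read counts per gene, so values under 1 FPKM carry little weight.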
